A study of Homo sapiens with 12 samples.

Results

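The 46 genes described here encode the working parts of the lysosome: 18 glycosidases and sulfatases, 6 lipid hydrolases and their activators, 12 proteases, 7 proteins of the lysosomal membrane and of lipid transport, and the 3 TFEB family transcription factors TFEB, TFE3 and MITF. They were taken by symbol from a list of lysosomal genes, drawn up with earlier results of these data known, out of 57815 genes measured, and all 46 were found. RNA was sequenced from 3 human non-small cell lung cancer lines, the adenocarcinoma lines A549 and H2023 and the large cell carcinoma line H460. All 3 are labelled as positive for a mutation of KEAP1, the protein that normally holds the transcription factor NRF2 low. Cells were transfected with control siRNA or with siRNA against NRF2 and collected after 48 h, in 6 groups of 2 libraries. In each NRF2 siRNA group 1 library was made with siRNA 28 and the other with siRNA 30, so the spread within these groups includes the difference between siRNAs. No group lacks the KEAP1 mutation, each line is 1 established line and not a set of tumours, and siRNA removes most but not all of its target. A549 was grown in high glucose medium and its RNA was depleted of ribosomal RNA, whereas H2023 and H460 were grown in low glucose medium and their polyA RNA was selected, so line, medium and protocol cannot be told apart.

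Lysosomes are acidic compartments in which hydrolases break down sugars, sulfated polymers, lipids and proteins. Most of these enzymes reach them through a mannose 6-phosphate tag, and membrane proteins keep the compartment intact and export the products. TFEB, TFE3 and MITF enter the nucleus when nutrient signalling at the lysosome falls, and they activate many lysosomal genes through an E-box with flanking bases. NRF2, encoded by NFE2L2, pairs with small MAF proteins and binds the antioxidant response element of detoxification and antioxidant genes.

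The average effect over the lines was higher with NRF2 siRNA for 26 of the 44 lysosomal genes tested and lower for 4 of them (limma, adjusted p under 0.05), where 15.2% of 11571 genes were higher and 14.5% lower. The genes that fell on average were GLA, CTSD, CTSL and TFE3. With A549 and H2023 only, 7 genes were higher, where 4.69% of all genes were, and the median log2 fold change was 0.23 in place of 0.41. Without a filter on low values 1 gene was lower in place of 4, where 3.82% of all genes were in place of 14.5%. The rise was widest in H460, where 15 of 45 were called higher beside 7.12% of all genes (0 with no filter, where 0% of all genes were). The H460 calls depended on single libraries, and with 1 left out the median log2 fold change there ranged from 0.62 to 1.11. No lysosomal gene was called higher in A549 or in H2023 alone, where 0.122% and 0.327% of all genes were. In every line the median log2 fold change of the lysosomal genes stood above that of all genes tested: 0.11 against 0.02 in A549 (0.0045 against -0.07 when scaled without mitochondrial transcripts), 0.32 against 0.02 in H2023, 0.84 against -0.01 in H460 and 0.41 against -0.01 for the average. All fold changes are of NRF2 siRNA over control siRNA on the scale of log2(FPKM + 1), where FPKM is a level per transcript length and library size, and the scale understates changes of genes with low values. The study treated the libraries of a group as biological duplicates, which in the knockdown groups carry different siRNAs, and the p-values measure the spread between these libraries. In bulk RNA a change in cell composition and a change of RNA per cell cannot be told apart.

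**Figure D1:**
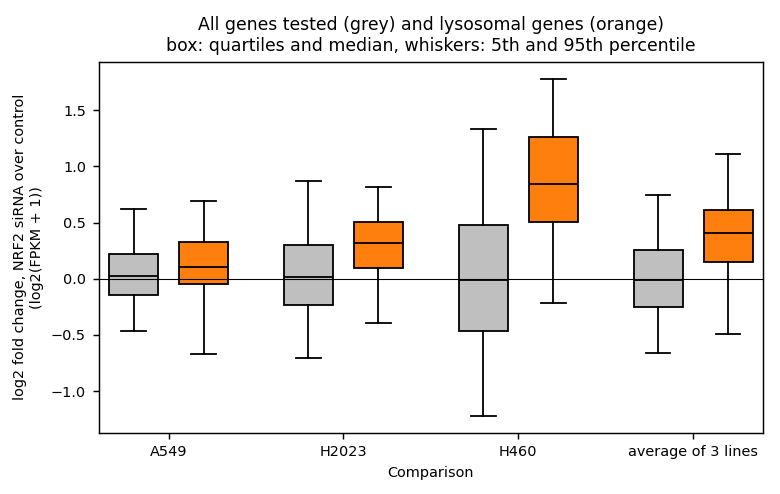
Log2 fold change of NRF2 siRNA over control siRNA (vertical axis, log2(FPKM + 1) scale) for all genes tested (grey) and for the lysosomal genes tested (orange) in A549, H2023, H460 and their average, with boxes for the quartiles and median and whiskers for the 5th and 95th percentile. The orange medians are 0.11, 0.32, 0.84 and 0.41, and the box of H460 lies highest.

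The libraries carried the knockdown that their labels name. NFE2L2 had 38.2 and 30.9 FPKM in the A549 control libraries and 5.31 and 7.84 FPKM with siRNA 28 and siRNA 30. It had 120 and 118 FPKM against 7.74 and 6.8 FPKM in H2023, and 144 and 99.5 FPKM against 6.54 and 12.2 FPKM in H460, in the same order. Its mean was 81.0%, 93.9% and 92.3% lower in the 3 lines, and all 10 reference targets of NRF2 fell in the average effect, with medians of -2.65, -3.09 and -2.99 per line. As a measure of depth, the authors' mean normalised counts summed to 33017000 in A549, 14228000 in H2023 and 14030000 in H460, and 12732 to 13909 genes a library had at least 1 FPKM. The epithelial markers KRT8 and KRT18 were high in all 3 lines, and the lung adenocarcinoma markers NKX2-1, NAPSA and SFTPB summed to at most 1.41 FPKM in any library, so the labelled adenocarcinoma origin was not visible in them. In H460 the epithelial adhesion genes CDH1 and EPCAM stayed at 0.149 to 1.17 FPKM and 0.222 to 1.19 FPKM.

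The promoters were searched for motifs, none of which stood in most of them. RefSeq promoters of GRCh38.p14, each from 250 bases before to 50 bases after the gene's start, were at hand for 34 of the 46 genes. The E-box CACGTG, searched on both strands, stood in 9 of the 34 (26.5%) and in 7.26% of 35116 promoters. Its extended palindrome TCACGTGA, the core of the sequence through which the TFEB family acts and a motif that contains CACGTG, stood in 5 of the 34 (14.7%) and in 0.98% of all promoters. These were the promoters of MCOLN1, CTSA, GAA, LAMP1 and GALNS. The antioxidant response element core TGACNNNGC stood in 11 of the 34 (32.4%) and in 13.4% of all promoters. A match describes letters and not binding, and the absence of a match says nothing of a factor. A stretch of each of the 5 promoters with TCACGTGA is printed because it is the motif tied to the TFEB family, with that motif in capitals. The stretches are from chr19:7522564-7522623, chr20:45891275-45891334, chr17:80101491-80101560, chr13:113297179-113297218 and chr16:88857098-88857137, the last on the minus strand and the others on the plus strand.
MCOLN1: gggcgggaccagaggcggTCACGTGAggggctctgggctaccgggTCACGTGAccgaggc
CTSA: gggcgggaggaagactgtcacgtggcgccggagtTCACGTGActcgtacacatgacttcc
GAA: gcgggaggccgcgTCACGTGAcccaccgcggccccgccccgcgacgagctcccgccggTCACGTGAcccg
LAMP1: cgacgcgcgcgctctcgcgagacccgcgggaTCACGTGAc
GALNS: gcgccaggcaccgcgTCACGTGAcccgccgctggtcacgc
The stretches of MCOLN1 and GAA each hold the palindrome at 2 places, and that of CTSA holds a further CACGTG in lower case just before it. Outside its printed stretch, LAMP1 holds the palindrome again at chr13:113297237-113297244. Its promoter also holds CACGTG at offsets -192, -176, -159 and -142 from the gene's start, and that of GALNS holds a further CACGTG at -32.

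The motifs were also counted by the direction of the average effect. Of the 26 genes higher on average 20 had a promoter, and TCACGTGA stood in 3 of them (CTSA, GAA and LAMP1), CACGTG in 6 and TGACNNNGC in 6. Of the 4 genes lower on average all had a promoter, with TCACGTGA in 0, CACGTG in CTSD and TGACNNNGC in CTSL, CTSD and GLA. Of the 16 genes not past the threshold or not tested 10 had a promoter, with TCACGTGA and CACGTG in 2 (GALNS and MCOLN1) and TGACNNNGC in 2 (CTSC and PPT1). A match to the antioxidant response element core in CTSL, CTSD and GLA is shown in capitals because these genes fell. The stretches are from chr9:87726087-87726112 (plus strand), chr11:1764106-1764131 and chrX:101407892-101407917 (both minus strand). In CTSL the capitals read the motif on the opposite strand, and in GLA the motif lies after the start of the gene. CTSD holds another match that is not shown, at chr11:1763915-1763923, which also lies after the start of its gene.
CTSL: gttttagaaGCAGAGTCAggcgaagc
CTSD: gggccgggcTGACCCCGCgggcgcga
GLA: cggtcaccgTGACAATGCagctgagg
In GAA and LAMP1 a match to TGACNNNGC overlaps a CACGTG, so the 2 motifs are not counted from separate bases there.

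**Figure D2:**
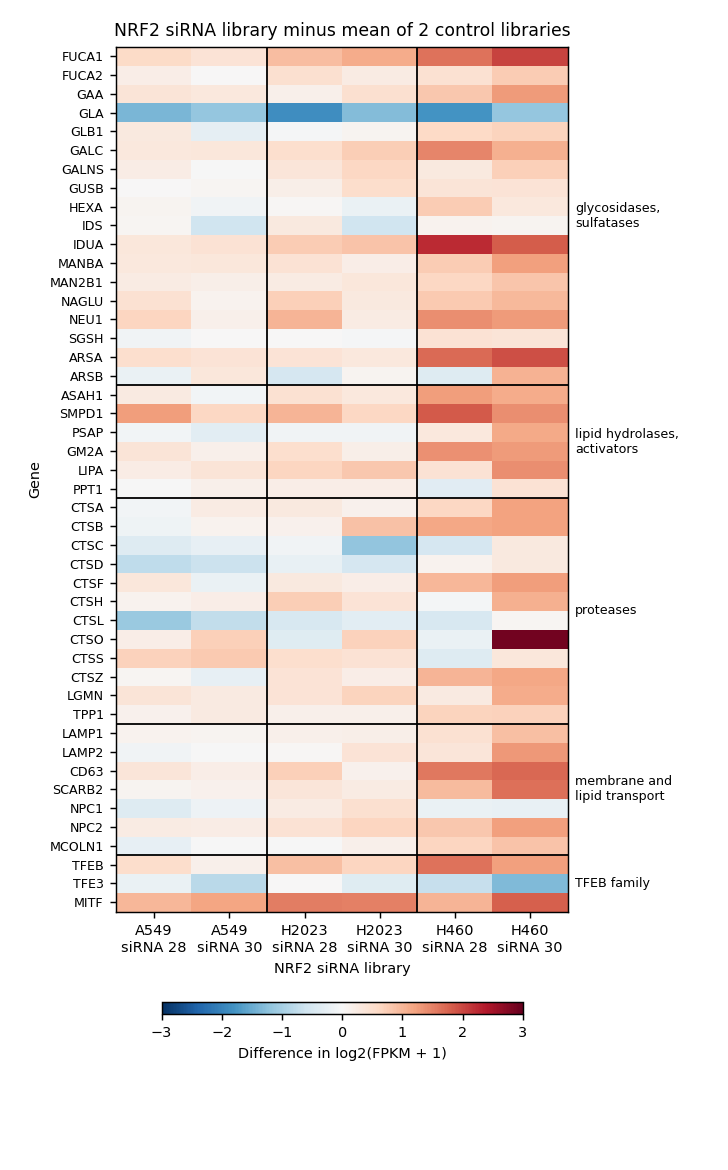
Difference in log2(FPKM + 1) between each NRF2 siRNA library and the mean of the 2 control libraries of its line (colour), for 46 lysosomal genes (rows, by role) and 6 NRF2 siRNA libraries (columns). Red fills most of the H460 columns, GLA is blue in all 6 columns, and the darkest cell is CTSO with siRNA 30 in H460, at 2.89.

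Values per library are given as the 2 control libraries against the siRNA 28 and the siRNA 30 library, in this order. Among the glycosidases and sulfatases GLA fell while none of the other 17 did. GLA (chrX:100648261-100663000, GRCh37, the whole gene as for all positions given) encodes alpha-galactosidase A, the enzyme deficient in Fabry disease. Its level was 98.5 and 98.9 FPKM in the A549 control libraries and 37.4 and 43.4 FPKM with siRNA 28 and siRNA 30. In H2023 it was 82.3 and 77.6 FPKM against 21.2 and 31.9 FPKM, and in H460 138 and 163 FPKM against 42.5 and 66.9 FPKM. Every NRF2 siRNA library lay below both controls of its line, and the mean was 59.1%, 66.8% and 63.6% lower. The log2 fold changes were -1.27 ± 0.14 (SE, adjusted p = 0.0278), -1.58 ± 0.23 (adjusted p = 0.0602) and -1.47 ± 0.28 (adjusted p = 0.0272), and the average was -1.44 ± 0.14 (limma, adjusted p = 0.0001). In both A549 and H460 the call was lost with no filter, where 0% of all genes were called lower, and when either control library was left out. In A549 it was also lost when scaled without mitochondrial transcripts, where 0.569% of all genes were lower. Under the alternatives the value ranged from -1.38 to -1.17 in A549 and from -1.795 to -1.15 in H460. The average passed under all 20 alternatives, with values from -1.55 to -1.34. GLA was the only gene of the 44 whose groups were apart and lower in all 3 lines, where 7.20% of all genes were. Its effect did not pass the test of a difference between lines (adjusted p = 0.835).

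The other glycosidases and sulfatases mostly rose: of 18 tested, 10 were higher and 1, GLA, lower in the average effect, beside 15.2% and 14.5% of all genes, with a median log2 fold change of 0.39. FUCA1 (chr1:24171567-24194780), which removes fucose from glycoproteins, had 4.85 and 4.84 FPKM in the A549 controls and 7.73 and 6.74 FPKM with siRNA 28 and 30. It had 4.35 and 3.07 FPKM against 7.9 and 9.16 FPKM in H2023, and 3.22 and 3.18 FPKM against 12 and 16.1 FPKM in H460. The groups were apart in each line, and the mean was 4.39-fold in H460. The log2 fold change was 1.83 ± 0.27 there (adjusted p = 0.0193) and 1.12 ± 0.12 on average (adjusted p = 0.000214).

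ARSA (chr22:51061182-51066601), arylsulfatase A, which cleaves sulfatide of myelin and is deficient in metachromatic leukodystrophy, had 6.32 and 5.32 FPKM against 8.63 and 7.99 FPKM in A549 and 9.57 and 9.57 FPKM against 13.1 and 12.2 FPKM in H2023. Its H460 values were 5.32 and 5.06 FPKM against 19.2 and 22.5 FPKM. The groups were apart in all 3 lines, and the H460 knockdown libraries exceeded every other library. The log2 fold change was 0.45, 0.37 and 1.81 ± 0.25 (adjusted p = 0.0168 in H460). ARSA was the only gene of the 44 to pass the test of a difference between lines (limma F test, adjusted p = 0.0239), where 2.51% of genes passed and 18 of the lysosomal genes had an unadjusted p under 0.05, as did 21.2% of all genes. The ARSA call was lost when any A549 library, either H2023 control, either H460 control or the H460 siRNA 30 library was left out. In each of these fits a smaller share of all genes passed as well. Under the alternatives the log2 fold change of ARSA ranged from 0.35 to 0.56 in A549, 0.32 to 0.46 in H2023 and 1.705 to 1.98 in H460. The count of lysosomal genes that differed was 0 with a replicate block, where 0.657% of all genes did, and 0 with a weight per line, where 0.786% did.

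IDUA (chr4:980785-998352), which removes iduronic acid from glycosaminoglycans, had 5.26 and 4.8 FPKM against 6.58 and 7.13 FPKM in A549, 3.98 and 6.1 FPKM against 9 and 9.7 FPKM in H2023, and 5.24 and 3.31 FPKM against 23.6 and 17.2 FPKM in H460. Its H460 fold change, 2.03 ± 0.31 (adjusted p = 0.0195), was the highest log2 value of the 46 genes there, and the groups were apart in all lines. GAA, acid alpha-glucosidase, which degrades glycogen, was also higher in H460 (1.05 ± 0.24, adjusted p = 0.0387) and rose on average (0.57). NEU1, a sialidase, was higher in H460 (1.33 ± 0.27, adjusted p = 0.0314) and on average (0.78).

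GALC, the galactosylceramidase deficient in Krabbe disease, rose on average (0.74 ± 0.19, adjusted p = 0.0169) and was far more abundant in H460 than elsewhere: 160.2 and 65.2 FPKM in the H460 controls, against 14.5 and 13.1 FPKM in those of A549 and 12.9 and 10.8 FPKM in those of H2023. The other genes of this group that rose on average were MANBA (0.55) and MAN2B1 (0.41), which are mannosidases, NAGLU (0.56), which acts on heparan sulfate, and FUCA2 (0.36), a secreted fucosidase. GALNS (0.37), GUSB (0.26), GLB1 (0.22), HEXA (0.15), SGSH (0.12), ARSB (0.06) and IDS (-0.11) did not pass in the average effect or in any line. These 7 split sulfate, galactose, glucuronic acid or hexosamine residues. IDS shares 74.97% of its exonic bases, and MAN2B1 13.1%, NAGLU 12.9%, the protease TPP1 11.6% and MANBA 9.69%, with another annotated gene on the same strand, so their values depend on how reads were shared out.

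Lipid hydrolases and their activators rose in 4 of 6 cases on average, and none fell, where 15.2% of all genes rose and 14.5% fell. SMPD1 (chr11:6411670-6416228), acid sphingomyelinase, had 2.49 and 2.39 FPKM in the A549 controls and 7.15 and 4.28 FPKM with siRNA 28 and siRNA 30. In H2023 it had 13.3 and 12.7 FPKM against 27.4 and 20.4 FPKM, and in H460 12 and 12.4 FPKM against 46.2 and 33.7 FPKM. The controls sat close together in each line, both knockdown libraries lay above them, and siRNA 28 gave the higher value in all 3. The mean was 2.34-, 1.84- and 3.27-fold that of the controls. The log2 fold change was 0.93 ± 0.24 (adjusted p = 0.23), 0.82 ± 0.21 (adjusted p = 0.167) and 1.61 ± 0.25 (adjusted p = 0.0196), and the average was 1.12 ± 0.14 (adjusted p = 0.000482). Only the H460 and average values passed.

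ASAH1, acid ceramidase, which acts on the ceramide that sphingomyelinase releases, had 63.5 and 55.9 FPKM against 71.8 and 56.4 FPKM in A549, with overlapping groups. It had 64.8 and 54.3 FPKM against 81.7 and 74.3 FPKM in H2023 and 48.6 and 48 FPKM against 116 and 106 FPKM in H460, with groups apart in both. The H460 log2 fold change was 1.18 ± 0.21 (adjusted p = 0.0233) and the average 0.56 ± 0.10 (adjusted p = 0.00261). GM2A, the activator that presents ganglioside GM2 to its hydrolase, was higher in H460 (1.32 ± 0.23, adjusted p = 0.0234) and on average (0.64), and LIPA, the lysosomal acid lipase that frees cholesterol, rose on average (0.64, adjusted p = 0.00913). PPT1, a thioesterase that removes fatty acids from proteins, did not pass (0.10 on average).

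PSAP, the precursor of the saposins and the most abundant gene of this group, had values in different directions by line. It had 169.6 and 160 FPKM against 156 and 132 FPKM in A549 and 281 and 269 FPKM against 256 and 257 FPKM in H2023, lower in each knockdown library. In H460 it had 212 and 204 FPKM against 259 and 458 FPKM, higher in both and most with siRNA 30. None of the log2 values of -0.20, -0.10 and 0.73 in A549, H2023 and H460 passed the test, nor did their difference between lines (adjusted p = 0.187).

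Of the 10 proteases tested on average, 6 rose and 2 fell, beside 15.2% and 14.5% of all genes. CTSL (chr9:90338966-90346384), cathepsin L, had the highest mean FPKM of its group over the 12 libraries, owing to its level in H460, with 156 and 113 FPKM against 60.8 and 78.5 FPKM in A549 and 257 and 228 FPKM against 172 and 193 FPKM in H2023. Its H460 values were 1367 and 1036 FPKM against 847 and 1235 FPKM. It was lower in both NRF2 siRNA libraries of A549 and H2023, and the H460 groups overlapped. The average fold change was -0.52 ± 0.14 (adjusted p = 0.0191), from line values of -0.93, -0.41 and -0.22 that did not pass.

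CTSD, cathepsin D, the main aspartic protease, had 157 and 133 FPKM against 84.6 and 91.5 FPKM in A549 and 520.5 and 524 FPKM against 449.8 and 368 FPKM in H2023, lower in both, and 728 and 665 FPKM against 748 and 849 FPKM in H460, slightly higher. Its average was -0.29 ± 0.09 (adjusted p = 0.0408), the weakest of the 4 genes that fell, and 5 of 20 alternatives kept it past the threshold. CTSD shares 22.9% of its exonic bases with another gene on the same strand. Fewer lysosomal genes were called lower on average without the A549 control library 0 or siRNA 28 library, either H2023 control library or the H460 control library 0. In each of these fits a smaller share of all genes was called lower as well. Under the alternatives the average of CTSD ranged from -0.53 to -0.24.

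CTSZ, cathepsin Z, a carboxypeptidase, had 85 and 76.9 FPKM against 84.3 and 68.3 FPKM in A549, 87.9 and 82.3 FPKM against 114 and 98.3 FPKM in H2023 and 309 and 229 FPKM against 543 and 592 FPKM in H460. The groups overlapped in A549 and were apart in the other lines, and the H460 log2 fold change was 1.09 ± 0.26 (adjusted p = 0.0412). CTSB, cathepsin B, was higher in H460 (1.18 ± 0.23, adjusted p = 0.0283), with the mean over the controls at 2.27-fold, and rose on average (0.56). CTSA, the protective protein of 2 glycosidases, LGMN, which cuts after asparagine, CTSF, a cysteine protease, and TPP1, a tripeptidyl peptidase, rose on average by 0.40, 0.52, 0.48 and 0.34. In the same order, these averages passed under 12, 14, 9 and 14 of 20 alternatives. CTSC, which activates granule proteases, and CTSH, an aminopeptidase, did not pass (-0.35 and 0.41).

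CTSO and CTSS were low and were left out of the average. CTSO, a cysteine protease of the papain family, was untested in A549, where all but 1 library lay under 1 FPKM. In H460 it had 1.05 and 1.1 FPKM in the controls and 0.802 and 14.4 FPKM with siRNA 28 and siRNA 30, so 1 library alone was high. CTSS, an elastin-degrading cathepsin of antigen presenting cells, was untested in H460, where it reached at least 1 FPKM in 1 library, and its groups were apart and higher in A549 and H2023 without a call (0.74 and 0.47).

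Of the 7 membrane and lipid transport genes, 4 rose on average and none fell, again beside 15.2% and 14.5% of all genes. CD63 (chr12:56119107-56123491), a tetraspanin of lysosomes and exosomes, was the most abundant, with 259.8 and 232 FPKM against 318 and 284 FPKM in A549 and 379.5 and 287 FPKM against 541 and 358 FPKM in H2023. The H460 libraries had 272 and 262 FPKM against 802 and 877 FPKM. The groups overlapped in H2023 and were apart in A549 and H460, where the mean was 1.22-fold and 3.14-fold. The H460 value of 1.65 ± 0.23 (adjusted p = 0.0178) and the average of 0.78 ± 0.12 (adjusted p = 0.00152) passed.

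SCARB2, a membrane protein that serves as a receptor for enzyme transport, and NPC2, which binds cholesterol in the lysosome lumen, were higher in H460 (1.30 ± 0.28, adjusted p = 0.035, and 1.01 ± 0.24, adjusted p = 0.0406) and on average (0.57 and 0.60). LAMP1, the most abundant glycoprotein of the lysosomal membrane, rose on average by 0.31 (adjusted p = 0.0328), with groups apart in all 3 lines. This average passed under 7 of 20 alternatives, with values from 0.13 to 0.39. LAMP2, its homologue, and MCOLN1, the calcium channel that feeds back on TFEB, did not pass (0.34 and 0.23 on average). NPC1, which hands cholesterol on from NPC2, had groups apart and lower in A549 (9.48 and 10.2 FPKM against 7.33 and 8.78 FPKM) and H460 (12.1 and 12.6 FPKM against 10.6 and 10.4 FPKM) but apart and higher in H2023 (51.4 and 56.9 FPKM against 64.8 and 75.8 FPKM). None of its fold changes of -0.26, 0.37 and -0.21 passed.

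The transcription factors of the TFEB family did not move as one. TFEB (chr6:41651716-41703997) had 1.13 and 1.09 FPKM in the A549 controls and 2.06 and 1.33 FPKM with siRNA 28 and siRNA 30, near the filter of 1 FPKM. It had 4.34 and 3.4 FPKM against 8 and 6.54 FPKM in H2023, and 1.94 and 2.05 FPKM against 8.21 and 6 FPKM in H460. The knockdown libraries were above the controls in all 3 lines, by 1.53-, 1.88- and 3.56-fold in the mean. The log2 fold change was 1.42 ± 0.28 in H460 (adjusted p = 0.0297) and 0.84 ± 0.13 on average (adjusted p = 0.00128).

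MITF (chr3:69788607-70017487), known for its role in pigment cells, had 6.19 and 3.85 FPKM against 10.8 and 12.3 FPKM in A549 and 7.71 and 5.32 FPKM against 20.5 and 20 FPKM in H2023. The H460 libraries had 4.36 and 3.65 FPKM against 9.18 and 16.4 FPKM. Both knockdown libraries exceeded both controls everywhere, and the average log2 fold change of 1.34 ± 0.16 (adjusted p = 0.000449) was the highest of the list. Its line values were 1.09, 1.52 and 1.41, of which that of H460 passed (adjusted p = 0.042).

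TFE3 (chrX:48886237-48900936) was the most abundant of the family and went the other way, with 24.8 and 23.7 FPKM against 20.9 and 13.5 FPKM in A549 and 22.6 and 27.6 FPKM against 25.1 and 19.1 FPKM in H2023. In H460 it had 57.9 and 59.1 FPKM against 36.1 and 22.7 FPKM. The groups were apart and lower in A549 and H460 and overlapped in H2023. The average was -0.56 ± 0.15 (adjusted p = 0.0176), and the line values of -0.51, -0.18 and -1.005 did not pass alone.

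**Figure D3:**
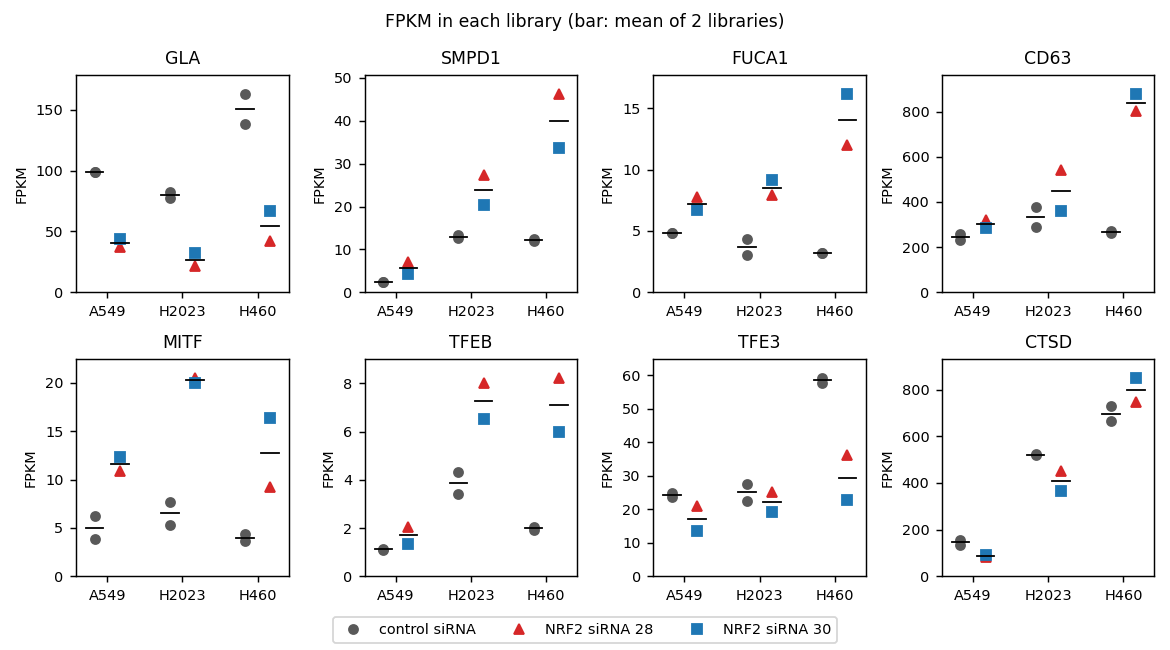
FPKM (vertical axes, from 0) of 8 lysosomal genes in each of the 12 libraries, with 2 control siRNA libraries (circles), the NRF2 siRNA 28 library (triangles) and the NRF2 siRNA 30 library (squares) per line, and a bar at each group mean. GLA is below its controls in every line, SMPD1, FUCA1, MITF and TFEB are above theirs in every line, and CTSD is lower in A549 and H2023 only.

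**Figure D4:**
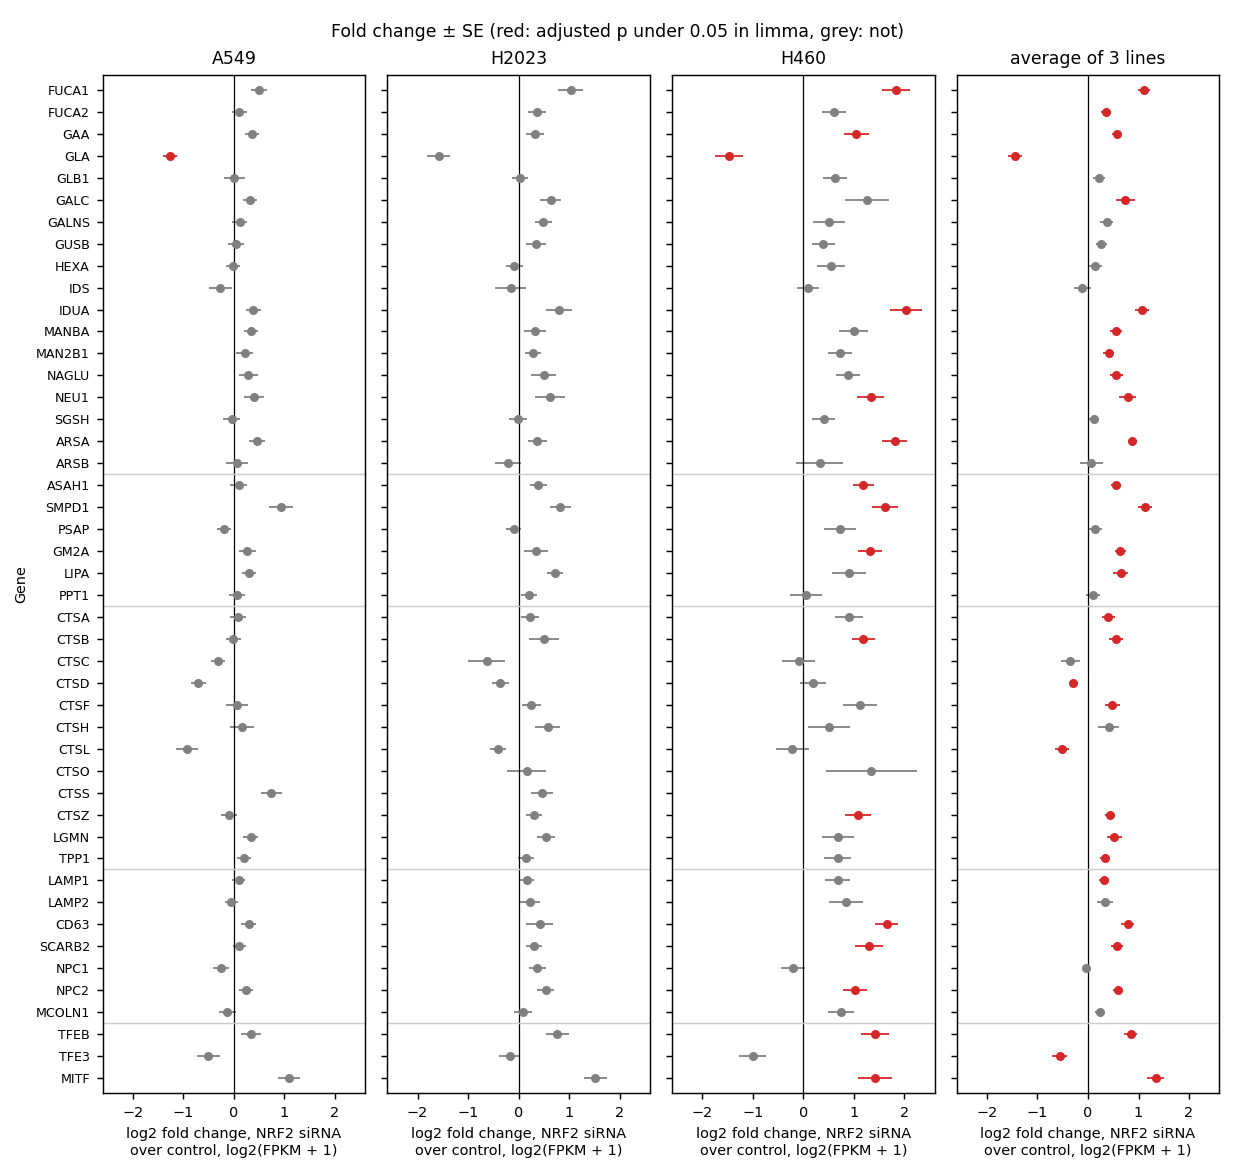
Log2 fold change with its SE (horizontal axes, log2(FPKM + 1) scale) of each lysosomal gene tested in A549, H2023, H460 and their average, in red where limma's adjusted p was under 0.05. There is 1 red point in A549 (GLA), none in H2023, 16 in H460 and 30 in the average.

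The calls were also counted within each line. In a single draw of simulated data the fit of A549 gave more false calls than its nominal rate. A single draw cannot fix that rate, and how far it bears on the call of GLA was not tested. In A549, 1 of 45 lysosomal genes was called lower (GLA), where 0.554% of genes were, and 0 of 45 higher, where 0.122% were (limma), with 6 higher at an unadjusted p under 0.05, where 8.27% of all genes were. Without the siRNA 30 library 1 gene was called higher, where 0.975% of all genes were. In H2023, 0 of 46 were called lower and 0 higher, against 0.583% and 0.327% of all genes, with 2 lower and 10 higher at an unadjusted p under 0.05, where 6.68% and 10.2% of all genes were. Without its siRNA 28 library H2023 had 7 genes called higher and 2 lower, against 5.39% and 5.91% of all genes, and without its siRNA 30 library 4 and 1, against 5.69% and 4.78%. In H460, 15 of 45 were called higher and 1 lower, against 7.12% and 6.86% of all genes. That count of 15 was 0 with no filter on low values, where 0% of all genes were called higher. It was also 0 without control library 0 and 0 without control library 1, where 0% and 0.00761% of all genes were called higher. In those fits 1 control library stood alone and was assumed to vary like the knockdown libraries, whose spread is between the 2 siRNAs. Without the siRNA 28 library the count was 26, with 2 lower, against 10.8% and 13.7% of all genes.

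Counted by groups that did not overlap, higher lysosomal genes numbered 20 of 45 in A549 (all genes, 25.2%), 28 of 46 in H2023 (27.0%) and 34 of 45 in H460 (31.1%). Lower ones numbered 7 in A549 (20.5%), 4 in H2023 (22.0%) and 3 in H460 (31.6%). In all 3 lines at once 17 of 44 were apart and higher, where 8.18% of genes were. These 17 were the enzymes GALC, ARSA, MAN2B1, MANBA, IDUA, GAA, FUCA1, NEU1, SMPD1, LIPA, LGMN and TPP1, the membrane and transport proteins NPC2, SCARB2 and LAMP1, and the factors TFEB and MITF.

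The effects were then compared between pairs of lines. That of H460 was higher than that of A549 for 6 of 44 genes, FUCA1, IDUA, ARSA, ASAH1, CTSZ and CD63, where 1.42% of genes were, and lower for 0, where 1.71% were. The differences in log2 fold change were 1.34, 1.65, 1.36, 1.09, 1.18 and 1.36, and their adjusted p-values lay between 0.0262 and 0.0449. Against H2023 only ARSA differed, by 1.45 (adjusted p = 0.0196), where 1.30% of genes were higher and 2.02% lower, with 16 of the 44 higher at an unadjusted p under 0.05, as were 9.29% of all genes. H2023 and A549 differed in 0 of 44 genes, where 0.00864% were higher and 0% lower, with 1 higher at an unadjusted p under 0.05, as were 2.95% of all genes. The comparisons of H460 share its libraries.

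The 2 siRNAs gave no called difference in any of the 46 genes (limma, 6 knockdown libraries), where 0% of 15716 genes were called lower and 0% higher with siRNA 28. At an unadjusted p under 0.05, 5 of the lysosomal genes were lower and 4 higher with siRNA 28 than with siRNA 30, where 7.08% and 11.1% of all genes were. The median change against the control mean was 0.20 with siRNA 28 and 0.13 with siRNA 30 in A549, 0.30 and 0.24 in H2023, and 0.62 and 1.11 in H460. In H460 LIPA had 42.6 and 83.4 FPKM, LAMP2 44 and 85 FPKM and CTSA 240.2 and 359 FPKM with siRNA 28 and siRNA 30, and the second library was the higher for each. TFE3, with the lowest unadjusted p of the 46, was higher with siRNA 28 by 0.54 ± 0.13 (adjusted p = 0.165).

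Other measures moved beside the H460 result, and their part in it was not tested. The summed FPKM of 7 proliferation genes was 639 to 746 in the H460 controls and 256 to 297 in its knockdown libraries, with 5 of the 7 called lower. It was 924 to 1004 against 685 to 850 in A549 and 545 to 627 against 318 to 591 in H2023. The summed FPKM of 6 macrophage markers was 2.08 to 5.80 in the H460 controls and 17.8 to 19.7 in its knockdown libraries, of which CD14 alone made 17.6 and 19.4. PTPRC, the leukocyte marker, was at most 0.0146 FPKM in H460, and TYROBP was listed at 0 in its 4 libraries. The 5 fibroblast markers summed to 5.74 to 6.84 FPKM in the H460 controls and 12.1 to 16.1 FPKM in its knockdown libraries, and the 5 epithelial markers to 1142 to 1335 FPKM against 1743 to 2606 FPKM. EPCAM and CDH1 made at most 1.19 and 1.17 FPKM of that epithelial sum, so nearly all of it came from keratins. The epithelial sum was 2129 to 2547 FPKM against 4624 to 5273 FPKM in H2023 and 6182 to 9114 FPKM against 7874 to 9195 FPKM in A549. The endothelial markers measured summed to at most 0.213 FPKM. When FPKM was rescaled without mitochondrial transcripts, the median of all genes was -0.07, 0.10 and 0.12 in the 3 lines, a shift of over 0.1 in H460. The lysosomal median was then 0.0045 in A549, with 23 of 45 genes above 0 in place of 31, and it was 0.41 in H2023 and 0.99 in H460.

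Beyond the 46, genes of the same pathway were read from lists drawn up in the same way, and their counts in the average effect stand beside 15.2% of all genes higher and 14.5% lower. Of 21 other lysosomal hydrolases and activators tested, 10 rose on average and none fell, with ACP2, the lysosomal acid phosphatase, at 1.38 ± 0.15 (adjusted p = 0.000266), PLA2G15, a lysosomal phospholipase, at 0.93 and HGSNAT, an acetyltransferase for heparan sulfate, at 0.99. Of 22 other lysosomal membrane proteins 9 rose and 1 fell. OSTM1, the partner of a chloride transporter, rose by 1.04, the channel TMEM175 by 0.84, and SLC36A1, an amino acid exporter, fell by 0.76. Of 17 subunits of the V-ATPase, the proton pump that acidifies lysosomes, 5 rose and none fell, with ATP6V1B2 at 0.78, ATP6AP2 at 0.71 and ATP6AP1 at 0.55.

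In enzyme sorting 4 of 21 genes were higher and 3 lower on average, shares near the 15.2% and 14.5% of all genes. GNPTG, a subunit of the enzyme that begins the mannose 6-phosphate tag, was at 0.74, VPS33A, a vesicle tethering factor, at 0.72, and IGF2R, a receptor for the tag, at -0.75. Of 25 autophagy genes 5 rose, a share also near that of all genes, and 1 fell. The latter, SQSTM1, a cargo receptor and known NRF2 target, was at -2.29 ± 0.20 (adjusted p = 5.54e-05). WIPI1 and GABARAP, which act in building autophagosomes, were at 0.92 and 0.52. Of 20 genes of nutrient signalling to TFEB, 2 rose and none fell, neither share above that of all genes: FNIP2, a folliculin partner, at 0.81 and RRAGB, a Rag GTPase, at 0.58. The medians of these 6 lists, in the order given, were 0.44, 0.27, 0.17, 0.05, 0.12 and 0.0095, beside -0.01 for all genes.

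**Figure D5:**
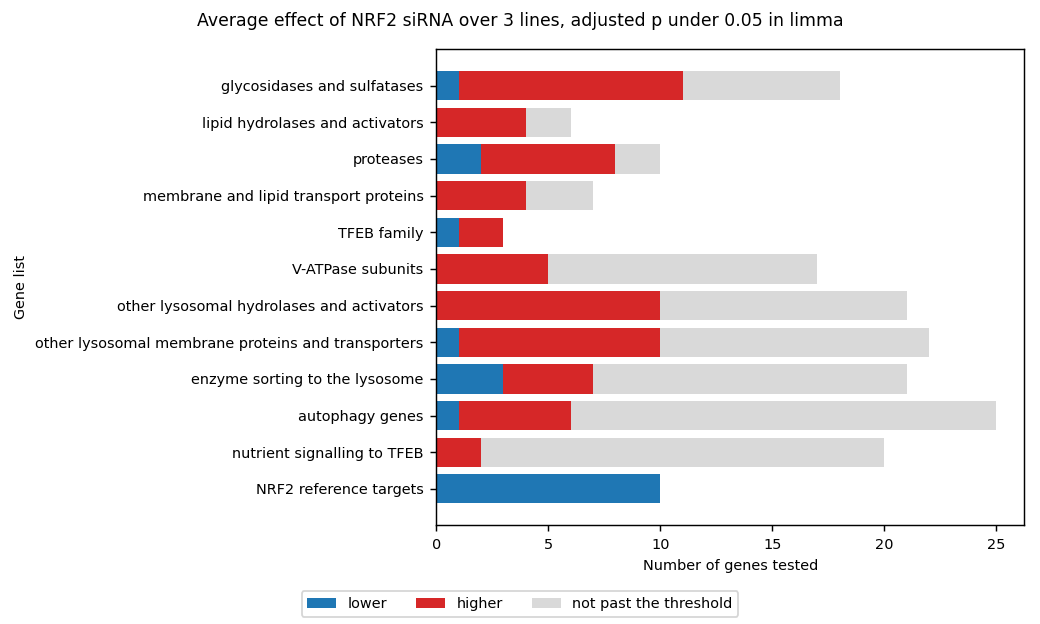
Number of genes tested (horizontal axis) in each role group of the 46 lysosomal genes and in 7 other lists, split by the average effect of NRF2 siRNA into lower (blue), higher (red) and not past an adjusted p of 0.05 in limma (grey). Red makes up 10 of 18 glycosidases and sulfatases and 10 of 21 other hydrolases, and 2 of 20 genes of nutrient signalling, and the 10 reference targets of NRF2 are all blue.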

How the data were processed

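RNA was measured by sequencing in 12 libraries, 2 for each of 6 groups taken from the labels. FPKM values were deposited as 1 file per library with 57815 genes each. The methods text has the authors' FPKM coming from Cufflinks after TopHat alignment to hg19, whereas the submitters' processing notes name bcl2fastq 2.15.0, cutadapt 1.15, STAR 2.5.3a, SAMtools, Cuffnorm, HTSeq and DESeq2 under R 3.2.0. The authors also deposited a table per line. Its mean normalised count, a signal value, served as a measure of depth, and its fold changes, scores and p-values, the authors' own comparison, were not used. Counts per library were not used here.

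FPKM under 1e-06 (12710 values) was set to 0, and identifiers were matched to GENCODE symbols lifted to GRCh37 (96.1% matched). Genes with at least 1 FPKM in 2 of the 4 libraries of a line were tested with limma 3.58.1 (R 4.3.3, trend, Benjamini-Hochberg over all genes, threshold 0.05, 2 residual degrees of freedom per line) on log2(FPKM + 1). The average effect and the differences between lines came from 1 fit of 12 libraries with 6 group means and 1 shared spread, for genes that passed in every line. The siRNAs were compared in the 6 knockdown libraries with line as covariate. Groups were said to be apart where both libraries of one lay above both of the other. Each fit was checked on a single draw of simulated data, in which that of A549 gave more false calls than its nominal rate. Tables were made with pandas 2.3.3 and numpy 2.4.6 in Python 3.11.15, and plots with matplotlib 3.10.9.

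The members and all lists were chosen with earlier results of these data known. By rule, values per library were given for members called in a line (up to 6 per line by adjusted p), members differing between lines, the TFEB family and the most abundant member of each role group, and up to 3 genes with the smallest p were named from each other list. Values per library of GALC, CTSD, CTSO, NPC1, LIPA, LAMP2 and CTSA, and the motif stretches printed, were added after the values were seen. Alternatives covered the pseudocount, the filter, the scaling, line weights, the replicate block and each library left out.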

Additional observations from a re-analysis of the deposited data

Results flagged for a closer look

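The effect of NRF2 siRNA differed between lines for ARSA (limma F test over 44 lysosomal genes of 11571 tested, adjusted p = 0.0239). The call was lost when any A549 library, either H2023 control, either H460 control or the H460 siRNA 30 library was left out, and also with a replicate block or a weight per line. In pairs of lines, the log2 effect was higher in H460 than in A549 by 1.34 for FUCA1, 1.65 for IDUA, 1.36 for ARSA, 1.09 for ASAH1, 1.18 for CTSZ and 1.36 for CD63, and higher in H460 than in H2023 by 1.45 for ARSA, each past an adjusted p of 0.05. Line, medium and RNA selection cannot be told apart where A549 is compared.

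For 3 genes both knockdown libraries of one line lay above their controls while both of another line lay below. The log2 fold change of PSAP was 0.73 in H460, -0.20 in A549 and -0.10 in H2023. That of CTSD was 0.20 in H460, -0.71 in A549 and -0.36 in H2023. That of NPC1 was -0.21 in H460, -0.26 in A549 and 0.37 in H2023. They were picked out by these directions, and none passed the F test of a difference between lines (limma, adjusted p = 0.187 for PSAP, 0.105 for CTSD and 0.196 for NPC1). Groups of 2 libraries were too small to look for a library far from the others.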

How the results depend on the processing

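No fold change of a lysosomal gene that was past the threshold changed sign under any alternative. Of the 802 alternatives of 47 called gene results, 657 kept direction and call and 145 lost the call, 90 of these with a library left out and 26 with no filter. Without a filter the lower call was lost in A549 and in H460 (0 each), and the H460 higher count fell from 15 to 0. In these fits 0% of all genes were called in either direction. The average lower count fell from 4 to 1, where 3.82% of all genes were lower. With scaling that omits mitochondrial transcripts the A549 lower count was 0 and the H2023 higher count 1, where 0.569% and 0.441% of all genes were. The medians were then 0.0045 in A549 and 0.41 in H2023. In 1 fit of all 12 libraries H2023 had 1 lower and 2 higher, and H460 2 lower and 29 higher, where 1.75% and 2.18% of all genes were lower and higher in H2023 and 17.8% and 15.5% in H460. With A549 and H2023 only, the average gave 7 higher, where 4.69% of all genes were, and a median of 0.23. The count that differed between lines went from 1 to 3 with a filter at FPKM 5 (4.18% of all genes), to 5 under median of ratios scaling (2.51%) and under scaling without mitochondrial transcripts (1.88%), and to 0 with a weight per line (0.786%). The cause of these changes was not tested.

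Leaving out 1 library at a time gave 0 to 1 lower and 0 to 1 higher in A549, 0 to 2 lower and 0 to 7 higher in H2023, and 0 to 2 lower and 0 to 26 higher in H460. The average gave 2 to 5 lower and 19 to 30 higher, the differences between lines 0 to 6 and the siRNAs 0. Each of these fits left 1 library alone in its group. The share of all genes called varied across them as well, so these ranges do not set the lysosomal genes apart from all genes. Medians ranged from 0.047 to 0.20 in A549, 0.24 to 0.32 in H2023, 0.62 to 1.11 in H460 and 0.36 to 0.50 on average. Same-numbered libraries were not taken as paired: no label ties them, their deviations correlated at 0.31 in H2023 and 0.16 in H460 but at -0.03 in A549, and in knockdown groups the number is also the siRNA. With a replicate block H2023 had 1 lower and 1 higher (2.12% and 2.94% of all genes), H460 2 lower and 21 higher (11.4% and 12.2%), and 0 genes differed between lines (0.657%).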
